A study of Mus musculus with 8 samples.

Results

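Cycling T cells were the T cells of the bone marrow that carried RNA of both Mki67, which encodes the proliferation antigen Ki-67, and Top2a, the topoisomerase that untangles DNA before cells divide. The cells were chosen by these measured counts: a barcode, the tag of 1 droplet, was called cycling when it had at least 1 unique molecular identifier (UMI, 1 RNA molecule) of the sum of Cd3d, Cd3e and Cd3g, at least 1 of Mki67 and at least 1 of Top2a, and none of Kit or Cd34. Barcodes with fewer than 200 genes, or with mitochondrial UMIs above 15% of the total, were left out. This gave 907 cycling T cells among 51407 T cell barcodes without Kit or Cd34, out of 56649 barcodes in all. They were split by co-receptor UMIs into 474 Cd8 cells (Cd8a or Cd8b1 without Cd4), 192 Cd4 cells (the opposite), 118 with both and 123 with neither. The remaining 50500 T cells are called other T cells.

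The samples were bone marrow T cells of C57BL/6 mice that model acute myeloid leukemia with the Runx1::Runx1t1 fusion. The Runx1::Runx1t1 group had the genotype Runx1Runx1t1/+; Mx1-Cre, and the control group was Runx1Runx1t1/+ littermates without Mx1-Cre, which the sample labels call wild type. Mx1-Cre responds to interferon and acts in blood cells and in other tissues, so the fusion was not limited to 1 lineage. Both groups received Poly(I:C), an interferon-inducing RNA mimic, at 5 mg/kg intraperitoneally every other day for 4 doses, and were sacrificed 4 weeks later at an age the sources used here do not give. T cells were enriched by negative selection and sorted as live CD3+ cells without mCherry, the reporter of the fusion, so cells expressing the reporter were not sampled. The mice of a group were combined in pairs into 2 pools, from which a 5′ gene expression library and a library of T cell receptor (TCR) chains were made, 8 libraries in all. Throughout, values are given for the Runx1::Runx1t1 pools, replicate 1 then 2, and after them for the control pools in the same order, and the pool, not the cell, is the replicate. The gene expression libraries held 102883449 and 100115383 UMIs against 90958101 and 99869646, and cycling T cells numbered 269 and 425 against 83 and 130. An alpha or beta TCR chain was read in 77.0% and 65.6% of them against 65.1% and 77.7%, and Trac, the alpha chain constant gene, was at 153 and 199 CPM against 144 and 150 CPM in the Cd8 class (CPM, UMI counts of the summed cells scaled to the same total in every pool).

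Most T cells of an adult mouse rest outside the cell cycle. When a T cell is triggered through its receptor, cyclins and their kinases drive it into S phase, when DNA is copied, and then through G2 into mitosis (M). Genes for DNA synthesis, such as Pcna, Mcm6 and Rrm2, peak in S phase, and genes of the mitotic machinery, such as Birc5, Ccnb1 and Cenpf, peak in G2 and M. A dividing clone keeps the TCR of its founder, so the sequence at the junction of the receptor's gene segments marks the descendants of 1 cell.

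The proliferation markers that the rule did not use, Birc5 (survivin, a mitotic protein) and Pclaf (a partner of the DNA clamp PCNA), were found in 57.3% and 59.2% of cycling T cells and in 1.11% and 1.19% of other T cells. The median depth was 13714 UMIs in cycling and 6391 in other T cells, so a deeper cell also had more chances to pass. Members differed widely by how far they stood inside the rule. In the 486 with at least 2 UMIs of each rule gene, Birc5 was found in 87.2% and Pclaf in 91.2%. The 221 with exactly 1 UMI of each held Birc5 in 9.05% and Pclaf in 9.5%, close to the 1539 T cells just outside the rule with Mki67 and no Top2a, where the shares were 11.4% and 8.84%. These cells sit at the threshold, and for them the name cycling rests on 2 molecules. The 4345 T cells with Top2a and no Mki67 held Birc5 in 0.967%. Of the pools, 69.1% and 58.4% against 67.5% and 73.8% of members carried Birc5 or Pclaf.

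**Figure D1:**
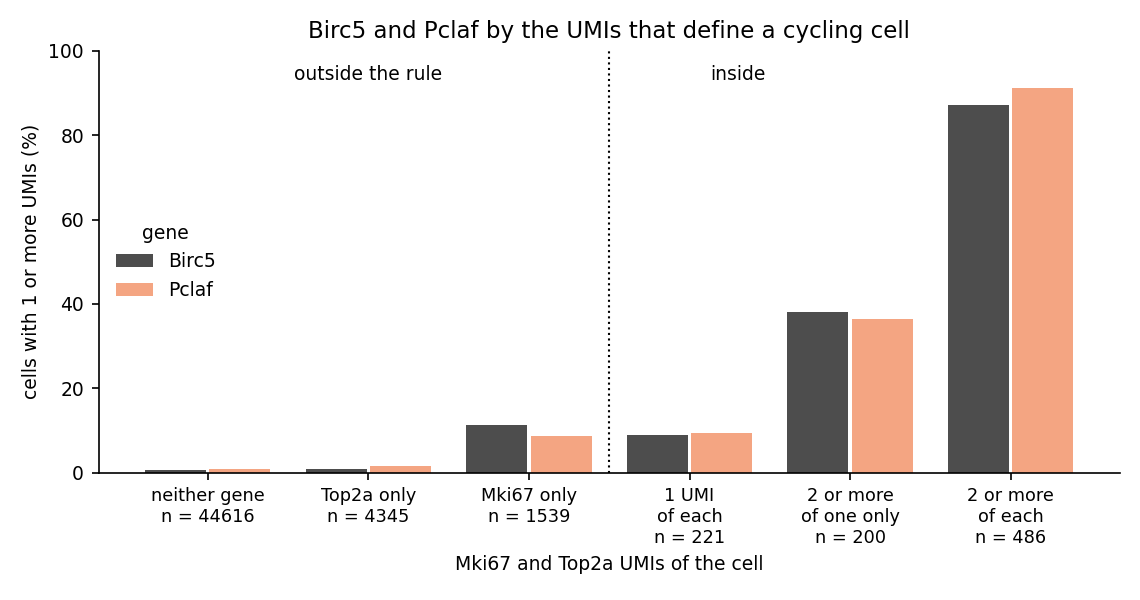
Share of T cells (y axis, %) with at least 1 UMI of Birc5 (dark bars) or Pclaf (light bars), by the number of Mki67 and Top2a UMIs in the cell (x axis), for all 4 pools together. The 221 members with 1 UMI of each gene, at 9.05% and 9.5%, lie near the 1539 cells with Mki67 only, and the 486 members with 2 or more of each reach 87.2% and 91.2%.

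The libraries shared 256 to 306 cell barcodes per pair, and 2 pairs shared 1 cycling barcode each. Signs of doublets were present among cycling T cells: 15.7% and 15.3% against 20.8% and 22.8% of those with a TCR beta chain carried 2 different beta chains, compared with 8.13% and 7.09% against 9.54% and 8.72% of other T cells. The highest 5% of doublet scores of each library took in 7.43% and 6.82% of cycling T cells against 1.20% and 6.15%. Of other T cells they took in 5.22% and 4.91% against 5.56% and 5.29%. In a set of cells with the same TCR (TRAV9D-3 with TRBV20, Runx1::Runx1t1 replicate 2), 84 of 128 had 2 beta chains. RNA of myeloid cells was present too, and unevenly. At least 3 UMIs over an 11-gene myeloid list were found in 5 (1.86%) and 3 (0.706%) cycling T cells of the Runx1::Runx1t1 pools and in 25 (30.1%) and 20 (15.4%) of the control pools, so the control pools were the higher ones and the groups did not overlap. Among other T cells the shares were 0.137% and 0.330% against 3.65% and 0.820%. The main results below are also given without these cells, a choice made after the data were seen. The part of doublets in any result was not tested beyond the settings below.

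Cycling T cells made up a larger part of the T cells in both Runx1::Runx1t1 pools than in either control pool. They were 2.00% and 3.39% of T cells against 0.658% and 1.01%, with group means of 2.70% ± 0.983 and 0.836% ± 0.252 (SD, n = 2 pools each), a ratio of 3.23. The exact permutation test over 2 pools against 2 (two-sided) gave p = 0.333, the smallest value it can give here. At matched depth, with each cell thinned to 2000 UMIs and shallower cells (403 to 612 per pool) left out, the shares were 0.694% and 1.05% against 0.250% and 0.395%. With 2 UMIs of each rule gene they were 1.18% and 1.56% against 0.412% and 0.632%, and with each clonotype counted once 2.35% and 3.02% against 0.556% and 1.09%. The Runx1::Runx1t1 pools were above the control pools under each of these 3 settings. Of all T cells, 5.73% and 8.24% against 2.32% and 2.73% held Mki67. Top2a was found in 11.5% and 16.2% against 5.90% and 7.31%. As a background, the rule was met by 1.71% and 2.65% against 0.327% and 0.997% of cells taken as naive. Among those that met it, 80.5% and 81.1% against 58.8% and 72.3% held Birc5 or Pclaf. The part of free RNA in these shares was not tested.

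By class, the Runx1::Runx1t1 pools were above the control pools in Cd8 cells at each setting tried, and in Cd4 cells they were not when the rule was made stricter. Cycling cells were 1.95% and 3.27% of Cd8 cells against 0.552% and 0.850% (ratio of means 3.72), and 1.24% and 1.59% against 0.300% and 0.510% with 2 UMIs of each gene (ratio 3.49). Of Cd4 cells they were 2.26% and 3.81% against 1.65% and 1.92% (ratio 1.70). With 2 UMIs of each gene, the Cd4 shares were 1.07% and 1.66% against 1.07% and 1.46%, and thinned to 2000 UMIs they were 0.626% and 1.27% against 0.862% and 0.943%. The Cd4 groups overlapped in both of these settings. Cells with neither co-receptor were cycling in 0.909% and 1.62% against 0.566% and 0.888% (ratio of means 1.74). Without the cells with myeloid UMIs these were 0.877% and 1.64% against 0.219% and 0.624% (ratio 2.99). The groups overlapped with at least 500 genes and 5% mitochondrial UMIs at most (0.807% and 1.48% against 0.554% and 0.887%) and with 2 UMIs of each rule gene (0.539% and 0.649% against 0.398% and 0.569%). Cells with both co-receptors were cycling in 5.90% and 6.91% against 0.340% and 3.70%, the highest class in all pools but control replicate 1, where it was the lowest (1 of 294 cells), and are described with their doublet signs below. Leaving out Runx1::Runx1t1 replicate 2 lowered the differences in points from 1.86 to 1.17 for all T cells, from 1.91 to 1.25 for Cd8, from 1.25 to 0.472 for Cd4 and from 0.539 to 0.182 for neither, and leaving out replicate 1 gave 2.56, 2.57, 2.03 and 0.896. The exact permutation test gave p = 0.333 for the Cd8, Cd4 and neither classes under the rule as given, and whether the classes differ in their group difference was not tested.

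**Figure D2:**
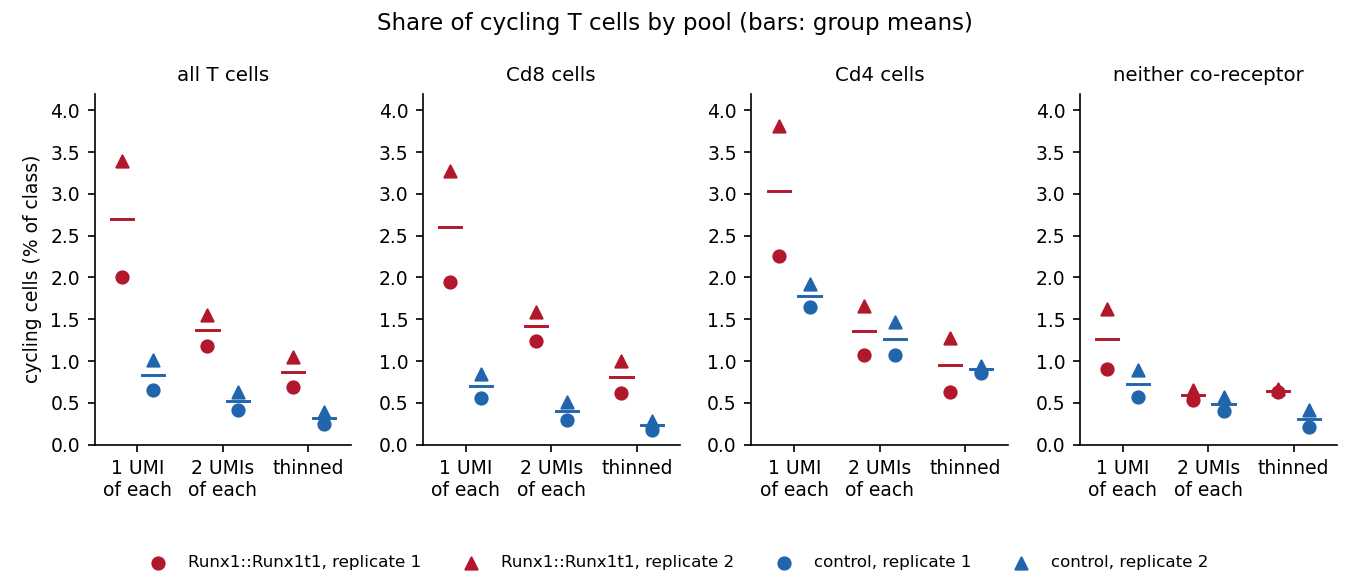
Cycling cells as a percent of all T cells, of Cd8 cells, of Cd4 cells and of cells with neither co-receptor (y axis), with 1 UMI of Mki67 and Top2a each, with 2 UMIs of each, and with 1 of each after thinning to 2000 UMIs per cell (x axis). Each point is a pool of 2 mice and each bar a group mean. Cd8 cells separate by group at all 3 settings (1.95% and 3.27% against 0.552% and 0.850% at the first), and Cd4 cells overlap at the stricter ones.

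Of 12 genes of immature T cells, Rag1, Rag2 and Ptcra, which early thymocytes need to build a TCR, had no UMI in any class of cycling T cells of any pool. Other genes of the list, such as Cd8b1 and Themis, are also used by mature T cells and were present. In the group test of cycling Cd8 cells given below, 0 of 7 tested rose and 1 fell (median log2 change -0.15). This was Sox4, a transcription factor of progenitors, with 2 and 6 UMIs against 7 and 9 (adjusted p = 0.0277), which did not pass with any 1 pool left out (0.107 to 0.706) or without the cells with myeloid UMIs (0.194).

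The make-up of the cycling cells by co-receptor class is given next, beside that of other T cells. A single UMI sets the class, and the median depth was 13714 UMIs in cycling and 6391 in other T cells. A deeper cell had more chances to show both co-receptors and fewer to show neither. The part of depth in this make-up was not tested. Cd8 cells were 51.3% and 56.7% of cycling T cells against 42.2% and 46.2%, and Cd4 cells 21.9% and 21.6% against 24.1% and 16.2%. Cells with both co-receptors were 16.7% and 14.6% against 1.20% and 7.69%. Within this class, 40.0% and 16.0% of Runx1::Runx1t1 cells with a beta chain had 2 beta chains, and 17.8% and 22.6% were among the highest 5% of doublet scores of their library. In the control pools 1 of 1 and 4 of 9 had 2 beta chains, and 0 had such scores. Other T cells with both co-receptors had 2 beta chains in 28.9% and 19.8% against 45.9% and 33.2%. Such scores were found in 23.4% and 21.4% against 34.1% and 27.3% of them. Cells with neither co-receptor were 10.0% and 7.06% against 32.5% and 30.0%. Without the cells carrying myeloid UMIs, these became 9.85% and 7.11% against 17.2% and 24.5%. Among other T cells, Cd8 cells were 52.8% and 58.9% against 50.3% and 55.2%, with groups that overlapped, and Cd4 cells 19.4% and 19.2% against 9.52% and 8.47%, with groups that did not, the reverse of the cycling cells in both classes. Other T cells had neither co-receptor in 22.3% and 15% against 37.9% and 34.3% and both in 5.45% and 6.90% against 2.34% and 2.05%. The difference in the neither class, -22.7 points, was -9.68 among cells with a TCR chain and -7.58 with each clonotype counted once. For the Cd8 and neither classes the exact permutation p was 0.333, for Cd4 it was 1, and the class with both was not tested.

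The class with neither co-receptor held several kinds of cells. A TCR alpha or beta chain was found in 15 of 27 and 12 of 30 cells against 6 of 27 and 20 of 39, and Trdc, the constant gene of the gamma-delta receptor, in 6 (22.2%) and 10 (33.3%) cells against 7 (25.9%) and 13 (33.3%), compared with 5.07% and 2.07% against 8.57% and 6.67% of cycling Cd8 cells. Trdv4, a delta chain V gene, stood at 218 and 702 CPM against 151 and 308 CPM, while in cycling Cd8 cells it reached at most 11.4 CPM. At least 3 myeloid UMIs were found in 1 and 0 of these cells against 17 of 27 and 12 of 39. Their summed level of the 11 myeloid genes was 19.4 and 6.69 CPM against 14963 and 3597 CPM, led by Lyz2 (lysozyme) in both control pools. In the Runx1::Runx1t1 pools 10 and 9 of the 11 genes were at 0, in the control pools none. Replicate 1 of the Runx1::Runx1t1 group also held 703 CPM of erythroid genes, led by Hbb-bs at 392 CPM. With fewer than 40 cells per pool, the class was not tested gene by gene.

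Genes of DNA synthesis and mitosis were higher in cycling than in other cells of both classes and in all 4 pools. Since the rule used Mki67 and Top2a, the contrast of cycling with other cells is a description with no test. In Cd8 cells, 459 of 7950 genes (5.77%) were at least 2-fold higher, a log2 ratio above 1, in cycling than in other cells in all 4 pools, and 9 (0.113%) were at least that much lower. In Cd4 cells these were 397 of 8301 genes (4.78%) and 54 (0.651%). Of the S phase list 32 of 41 genes were higher in Cd8 cells (median log2 ratio 2.29) and 32 of 42 in Cd4 cells (2.14). Of the G2 and M list without Mki67 and Top2a, 44 of 48 were higher in Cd8 cells (3.86) and 48 of 49 in Cd4 cells (4.27). The median over all genes in Cd8 cells was 0.13.

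Among genes of replication and mitosis, Rrm2, the ribonucleotide reductase subunit that supplies nucleotides for DNA synthesis, had log2 ratios of 5.88 and 5.53 against 6.18 and 6.21 in Cd8 cells. Ccna2, which encodes cyclin A2, had 7.08 and 6.54 against 6.85 and 6.58, and its partner kinase Cdk1 had 5.76 and 5.33 against 6.14 and 5.69. The mitotic cyclin Ccnb1 had 4.93 and 4.65 against 4.83 and 4.51. These 4 genes lay within 1 log2 unit of each other between pools. Pcna, which other T cells also express, had a smaller ratio of 1.78 and 1.60 against 1.52 and 1.93. Of 17 cyclins and cell cycle inhibitors, 7 were higher in Cd8 cells, the inhibitors Cdkn2a and Cdkn2c among them. Cdk4, the kinase of early G1, was higher by less than the limit (0.88 and 0.79 against 0.84 and 0.94).

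Lower genes were few, and several are known from resting T cells. In Cd8 cells they were Ccr7, Bach2, Pik3ip1, Kdm5b, Zhx2, Tcp11l2, Prrt1, Gm14085 and Gm43698. Ccr7, the receptor that guides naive T cells to lymph nodes, had log2 ratios of -1.52 and -1.51 against -1.58 and -1.32 in Cd8 cells and of -2.18 and -2.59 against -1.29 and -2.02 in Cd4 cells. Btg1, an antiproliferative gene of quiescent lymphocytes, had -0.85 and -1.0 against -0.80 and -0.90 in Cd8 cells, the same sign in all pools and past the limit in 1. Tcf7, a transcription factor of naive and memory T cells, had -0.79 and -0.89 against -0.82 and -0.75. Cytotoxicity and inhibitory receptor lists had no member past the limit in all pools of Cd8 cells (0 of 20 and 0 of 11). Gzma, granzyme A, had 2.20 and -0.27 against 4.24 and 2.30, so replicate 2 of the Runx1::Runx1t1 group stood apart from the other 3 pools.

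The summed S phase and G2 and M lists are given as a description, and neither their balance nor a difference between the classes was tested. In Cd8 cells the S phase list summed to 4136 and 4162 CPM against 3194 and 3976 CPM, and the G2 and M list, without the rule genes, to 9099 and 8165 CPM against 7511 and 7138 CPM. In Cd4 cells the S phase list was at 4335 and 4184 CPM against 4012 and 4715 CPM. The G2 and M list of Cd4 cells was at 9543 and 8955 CPM in the Runx1::Runx1t1 pools and at 13714 and 15529 CPM in the control pools, which were higher with no overlap. S phase genes outweighed G2 and M genes in 20 of 59 and 28 of 92 cycling Cd4 cells against 1 of 20 and 2 of 21. In Cd8 cells the counts were 38 of 138 and 83 of 241 against 8 of 35 and 25 of 60. With 2 UMIs of each rule gene, the Cd4 counts were 8 of 28 and 10 of 40 against 0 of 13 and 0 of 16. The G2 and M list of Cd4 cells was then at 13634 and 13205 CPM against 16315 and 17399 CPM, a smaller gap without overlap. The control pools had only 20 and 21 cycling Cd4 cells.

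**Figure D3:**
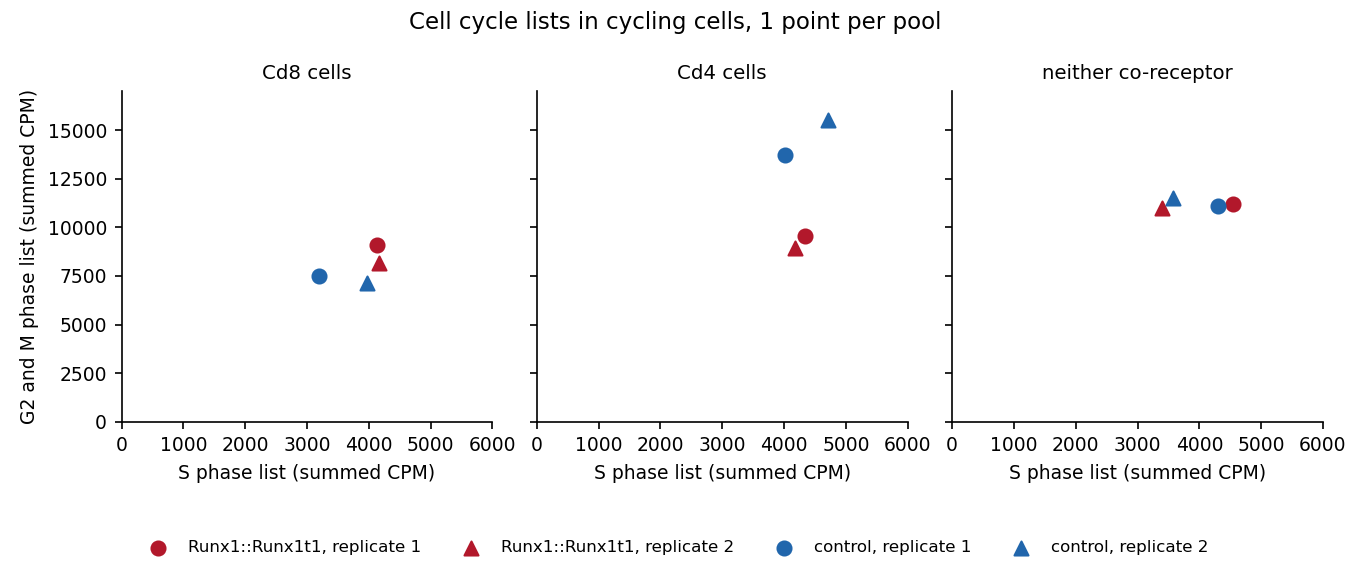
Summed expression of the G2 and M phase list without Mki67 and Top2a (y axis, CPM) against the S phase list (x axis, CPM) in cycling cells, 1 point per pool, for Cd8 cells, Cd4 cells and cells with neither co-receptor. In Cd4 cells the control pools lie at 13714 and 15529 CPM of G2 and M genes, above the Runx1::Runx1t1 pools at 9543 and 8955 CPM.

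Cycling Cd8 cells of the Runx1::Runx1t1 group had more RNA of the inhibitory receptors Tigit and Pdcd1, of Entpd1 and of the chemokine Ccl4 than those of the control group, and less of Il7r, with and without the cells carrying myeloid UMIs. The granule genes Gzmb, Gzmk, Prf1 and Nkg7 rose in all cells and did not pass without those cells. Counts were summed per pool and compared by edgeR's quasi-likelihood test with Benjamini-Hochberg adjustment, and a gene passed at an adjusted p under 0.05. Of 8788 genes tested, 62 rose (0.706%) and 183 fell (2.08%), and 1078 had an unadjusted p under 0.05. Without cells carrying 3 or more myeloid UMIs, which removed 2 and 2 cells against 8 of 35 and 8 of 60, 12 genes rose (0.143%) and 2 fell (0.0239%) of 8380. Of these 14 calls, 11 rises and 1 fall were shared with the first fit. Most calls were thus lost without these 20 cells. Of all genes tested, 42.5% had pools that did not overlap between the groups.

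Of 11 inhibitory receptor genes tested, 6 rose and 0 fell in cycling Cd8 cells, with a median log2 change of 1.74 beside 0.00 for all genes tested. In other Cd8 cells, 0 of 12 passed in the fit without a replicate block. Their median was 1.88 with 10 of 12 above 0, so the list pointed the same way outside the cycling cells. Tigit, an inhibitory receptor of activated T cells, was at 162 and 276 CPM against 47.5 and 30.1 CPM. Its log2 change was 2.56 ± 0.286 (SE, adjusted p = 0.000738), and 2.33 (adjusted p = 0.00361) without the cells with myeloid UMIs. It passed in every alternative fit that was run. In other Cd8 cells Tigit was at 126 and 284 CPM against 29.7 and 33.2 CPM and did not pass (adjusted p = 0.0765). Entpd1, the CD39 ectoenzyme that marks chronically stimulated T cells, was at 28.1 and 46.5 CPM against 3.65 and 5.19 CPM, a log2 change of 3.01 ± 0.457 (adjusted p = 0.00337, and 0.0485 without those cells). Pdcd1, which encodes PD-1, was at 53.9 and 103 CPM against 11 and 14.5 CPM, a log2 change of 2.58 ± 0.387 (adjusted p = 0.00329, and 0.026 without those cells). Its adjusted p was 0.121 with 2 UMIs of each rule gene. In other Cd8 cells Pdcd1 was at 24.7 and 102 CPM against 3.83 and 2.92 CPM and did not pass, so its group difference was not particular to cycling cells.

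The other 3 inhibitory genes that rose did not pass without the cells with myeloid UMIs, although the sign of the change stayed. Lag3, a receptor for MHC class II, was at 60.5 and 170 CPM against 20.1 and 2.07 CPM (log2 change 3.72, adjusted p = 0.00961, and 3.61 with 0.0988 without those cells, and 0.433 by DESeq2). Havcr2, which encodes TIM-3, was at 15.7 and 41.7 CPM against 3.65 and 1.04 CPM (adjusted p = 0.0196, and 0.238 without those cells). Its UMIs without those cells were 33 and 156 against 2 and 0, too few in the control pools for a fold. The median log2 change of the list was 2.33 without those cells, with 3 of 11 genes passing. Tox, a transcription factor of exhausted T cells, was at 82.9 and 171 CPM against 52.9 and 37.3 CPM (log2 change 1.55, adjusted p = 0.0265, and 1.19 with 0.34 without those cells). For all 3 genes replicate 2 of the Runx1::Runx1t1 group was the highest pool. With that replicate left out the adjusted p was 0.201 for Havcr2 and 0.0699 for Tox, and without control replicate 2 it was 0.112 and 0.106. With 2 UMIs of each rule gene it was 0.193 for Tox. Ctla4 was at 92.9 and 158 CPM against 91.3 and 42.5 CPM and did not pass (adjusted p = 0.138).

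Of 20 cytotoxicity genes tested, 7 rose and 0 fell (median log2 change 0.63). In other Cd8 cells 0 of 20 passed in the fit without a replicate block, with a median of 0.76. Ccl4, a chemokine released by activated CD8+ T cells, was at 798 and 921 CPM against 208 and 305 CPM, a log2 change of 1.71 ± 0.186 (adjusted p = 0.000738, and 0.00338 without the cells with myeloid UMIs). It passed in every alternative. Ccl5, a chemokine of memory and effector cells and the most abundant gene of the list, was at 9895 and 11253 CPM against 5573 and 3514 CPM (1.21 ± 0.18, adjusted p = 0.00317, and 0.94 with adjusted p = 0.142 without those cells, and 0.64 with adjusted p = 0.275 with 2 UMIs of each rule gene). Gzmb, granzyme B, was at 345 and 315 CPM against 192 and 115 CPM (1.13 ± 0.202, adjusted p = 0.00947, and 0.68 with adjusted p = 0.579 without those cells). Both genes had groups that did not overlap, and both kept their sign without those cells. Without those cells only Ccl4 and Ccl3 of the list passed, and Ccl3, a sister chemokine, had been at 167 and 285 CPM against 192 and 84 CPM with them.

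Of the same list, the granule gene Nkg7 was at 1949 and 2559 CPM against 1234 and 1353 CPM and lost its call when Runx1::Runx1t1 replicate 2 was left out (adjusted p = 0.359) or 2 UMIs of each rule gene were asked for (0.155). Prf1, perforin, was at 54.3 and 78.8 CPM against 23.7 and 32.2 CPM, with an adjusted p of 0.167 without that replicate, 0.0569 without control replicate 1, 0.135 by DESeq2, 0.0748 with a TCR chain and 0.196 with 2 UMIs of each rule gene. Gzmk, granzyme K, was at 262 and 407 CPM against 195 and 71.6 CPM, with 0.0884 without control replicate 2, 0.0748 with a TCR chain and at least 0.999 by DESeq2. Adgrg1, which encodes the adhesion receptor GPR56 of cytotoxic cells, was at 15.3 and 46.2 CPM against 5.48 and 3.11 CPM, with 0.583 without Runx1::Runx1t1 replicate 2, 0.181 without control replicate 2, 0.0914 with a TCR chain, 0.0508 with at least 500 genes and 0.0502 without the highest doublet scores. These 4 rises (adjusted p = 0.0151, 0.0273, 0.0453 and 0.0453 in all cells) did not pass without the cells with myeloid UMIs (0.437, 0.388, 0.648 and 0.304). The log2 changes without those cells were 0.49 for Nkg7, 0.91 for Prf1 and 0.85 for Gzmk. Adgrg1 kept its sign and had 32 and 173 UMIs against 3 and 0 without those cells, too few in the control pools for a fold, against 3 and 3 with them. Gzma was at 1337 and 597 CPM against 1035 and 319 CPM and did not pass (adjusted p = 0.714).

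**Figure D4:**
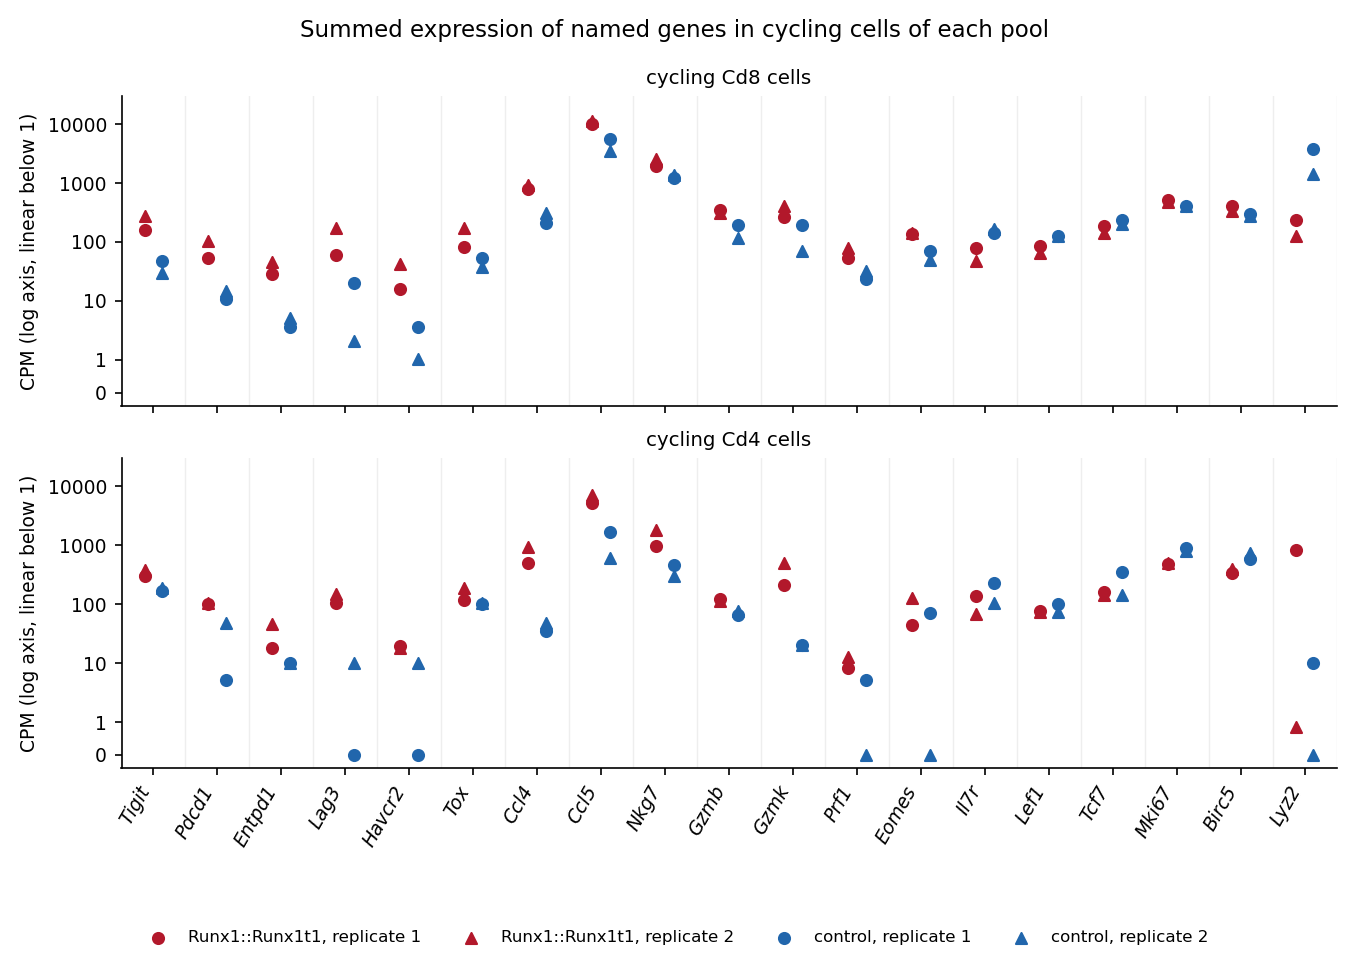
Summed expression (CPM, log axis that is linear below 1) of named genes (x axis) in cycling Cd8 cells (upper) and cycling Cd4 cells (lower). Each point is a pool of 2 mice. In Cd8 cells Tigit (162 and 276 against 47.5 and 30.1) and Ccl4 (798 and 921 against 208 and 305) separate by group, Mki67 and Birc5 stay close, and Lyz2, a myeloid gene, lies at 3835 and 1418 in the control pools.

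Of 12 naive and memory genes tested, 2 fell and 0 rose (median -0.27). Il7r, the receptor for the survival cytokine interleukin 7, was at 79.1 and 48.3 CPM against 144 and 163 CPM. It fell by 1.32 ± 0.225 on the log2 scale (adjusted p = 0.00694, and 0.0111 without the cells with myeloid UMIs) and passed in every alternative. Lef1, a transcription factor of naive T cells, was at 84.4 and 63.8 CPM against 126 and 126 CPM (log2 change -0.79, adjusted p = 0.0376, and -0.94 with adjusted p = 0.142 without those cells). It did not pass by DESeq2 (adjusted p = 0.187), with 2 UMIs of each rule gene (0.102) or with a TCR chain (0.142). Without Runx1::Runx1t1 replicate 2 its adjusted p was 0.537, and without control replicate 2 it was 0.0994. Its partner Tcf7, at 189 and 141 CPM against 232 and 201 CPM, did not pass (adjusted p = 0.40). Eomes, a transcription factor of memory and cytotoxic cells, rose from 71.2 and 48.8 CPM in the control pools to 138 and 141 CPM (log2 change 1.25, adjusted p = 0.00317, and 0.92 with adjusted p = 0.259 without the cells with myeloid UMIs).

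The S phase and mitotic lists had no gene past the group test in cycling Cd8 cells. None of 42 S phase genes and none of 49 G2 and M genes, leaving out the rule genes, passed (0 higher and 0 lower, median log2 changes of 0.14 and 0.17). Mki67, again as a description, was at 521 and 485 CPM against 407 and 413 CPM. Birc5 was at 410 and 340 CPM against 299 and 277 CPM, higher in both Runx1::Runx1t1 pools and not passing. Pclaf was at 559 and 468 CPM against 511 and 487 CPM, with overlapping pools. Of 17 cyclins and inhibitors 2 were lower. Cdkn1a, the cell cycle inhibitor p21, was at 67.7 and 59.0 CPM against 137 and 93.4 CPM (adjusted p = 0.0369), with 0.216 without Runx1::Runx1t1 replicate 2, 0.144 without control replicate 1 and a log2 change of 0.16 without the cells with myeloid UMIs. Cdkn1a also did not pass by DESeq2 (adjusted p = 0.147) or with 2 UMIs of each rule gene (0.101). Ccnd3 (cyclin D3) was at 289 and 261 CPM against 444 and 412 CPM (adjusted p = 0.0351, and 0.371 without the cells with myeloid UMIs). Leaving out either Runx1::Runx1t1 replicate (0.0565 and 0.513) or control replicate 1 (0.0532) also ended that call. Myc target and glycolysis lists had 0 of 16 and 0 of 15 genes past the test, the interferon list 0 of 10.

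Outside the lists, other genes rose and held without the cells with myeloid UMIs. They are named here after their values were seen. Bhlhe40, a transcription factor of activated T cells, was at 328 and 381 CPM against 179 and 178 CPM (log2 change 0.98 ± 0.151, adjusted p = 0.00391, and 0.0485 without those cells). Sh2d2a, the T cell adaptor TSAd, was at 404 and 527 CPM against 166 and 201 CPM (1.31 ± 0.175, adjusted p = 0.00207, and 0.0292). In each of these genes both Runx1::Runx1t1 pools lay above both control pools. Id3, which restrains effector differentiation, was at 41.9 and 40.9 CPM against 54.8 and 97.5 CPM and passed only without the cells with myeloid UMIs (adjusted p = 0.0523 and 0.0485).

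Coch, which encodes the secreted protein cochlin, had no UMI in cycling Cd8 cells of either control pool and was at 31.5 and 40.6 CPM in the Runx1::Runx1t1 pools. This is at least 18.8-fold higher, counting 3 UMIs over both control pools for the 0 (adjusted p = 0.000738, and 0.0678 with 2 UMIs of each rule gene). Among all T cells it was found in 498 and 956 cells against 13 and 8. Of these, 369 and 655 against 9 and 4 had both chains, in 54 and 90 clonotypes against 7 and 2. The commonest clonotype of each pool held 74 and 172 of them against 3 and 3. Cpa3, a carboxypeptidase best known from mast cells, was at 8.58 and 11.2 CPM against no UMI, at least 5.17-fold higher (adjusted p = 0.0218, and 0.233 without the cells with myeloid UMIs). Its adjusted p was 0.0735 without Runx1::Runx1t1 replicate 1 and 0.10 without control replicate 2. Cpa3 was found in 1444 and 1657 T cells against 9 and 7. Of these, 1053 and 1117 against 7 and 6 had both chains, in 917 and 787 clonotypes against 7 and 6. The commonest clonotype of each pool held 17 and 134 of them against 1 and 1. Among other T cells of the Runx1::Runx1t1 pools Cpa3 was found in similar shares of every class, 10.5% and 13% of Cd8, 10.4% and 12.9% of Cd4 and 11% and 13.4% of cells with neither co-receptor, so its counts cannot be told apart from free RNA. Coch was found in 3.73% and 8.48% of other Cd8 cells and in 0.815% and 1.05% of other cells with neither co-receptor. Adrb1, the beta-1 adrenergic receptor, and Cd200r2 had no UMI in the control pools either and were at least 5.43-fold and 6.64-fold higher. By DESeq2 Adrb1, Cd200r2 and Cpa3 did not pass (adjusted p = 0.0874, 0.0660 and 0.0980). Adrb1 did not pass without the cells with myeloid UMIs (adjusted p = 0.199) or without control replicate 2 (0.0945), and Cd200r2 not without control replicate 2 (0.121).

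The genes that fell most included genes known from macrophages and monocytes. Fn1, fibronectin, was at 1.43 and 5.07 CPM against 272 and 159 CPM, and fell by 5.81 ± 0.346 on the log2 scale (adjusted p = 1.11e-05). Chil3, a chitinase-like protein of alternatively activated macrophages, was at 0.00 and 8.54 CPM against 586 and 220 CPM. Cd209a, a lectin of dendritic cells and monocytes, had no UMI in the Runx1::Runx1t1 pools and was at 18.3 and 7.26 CPM in the control pools, at least 21.9-fold lower. Its call was lost without Runx1::Runx1t1 replicate 1 (adjusted p = 0.168) or 2 (0.197). The 11 myeloid genes summed to 252 and 148 CPM in cycling Cd8 cells against 4543 and 1513 CPM. Lyz2 was their most abundant gene in all pools, at 239 and 124 CPM against 3835 and 1418 CPM, and 2 and 1 of the 11 genes were at 0 in the Runx1::Runx1t1 pools (Elane and Ctsg, and Csf3r) and none in the control pools. In other Cd8 cells the sums were 8.43 and 19.7 CPM against 222 and 67.5 CPM. Of 5 myeloid genes tested in cycling Cd8 cells 4 fell, and without the cells with myeloid UMIs 0 of 1 did. In the NK cell list Tyrobp and Fcer1g, adaptors that myeloid cells share, fell and Eomes rose. The B cell list was at 12.9 and 10.9 CPM against 20.1 and 15.6 CPM, lower in both Runx1::Runx1t1 pools, and its 1 gene tested did not pass.

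Cycling Cd4 cells of the Runx1::Runx1t1 group had more chemokine and granzyme K RNA than those of the control group. Of 6334 genes tested, 8 rose (0.126%) and 5 fell (0.0789%), with 613 at an unadjusted p under 0.05. Without cells with myeloid UMIs 20 rose (0.334%) and 8 fell (0.133%) of 5996, and the 13 calls were kept. Of all genes tested, 39.9% had pools that did not overlap between the groups. Leaving out 1 pool at a time raised the number of calls, to 56 and 42 without Runx1::Runx1t1 replicates 1 and 2 in turn and to 318 and 161 without control replicates 1 and 2. Of 11 cytotoxicity genes tested, 5 rose and 0 fell (median log2 change 1.76), and of 7 inhibitory receptor genes 1 rose (0.61).

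Ccl4 was at 503 and 937 CPM in cycling Cd4 cells against 35.7 and 47.5 CPM, a log2 change of 4.10 ± 0.37 (adjusted p = 0.000681). Ccl3 was at 256 and 543 CPM and had 1 and 0 UMIs in the control pools (adjusted p = 0.000741). Gzmk was at 211 and 504 CPM against 20.4 and 20.4 CPM, a log2 change of 4.15 (adjusted p = 0.00361). The Runx1::Runx1t1 pools lay far above the control pools for these 3 genes, which passed in all alternatives. Ccl5 was at 5184 and 7076 CPM against 1682 and 617 CPM (log2 change 2.48, adjusted p = 0.00681). Ctla2a, an inhibitor of cysteine proteases, was at 546 and 670 CPM against 138 and 81.4 CPM (2.55, adjusted p = 0.000981). Lag3 was at 104 and 150 CPM, with 0 and 3 UMIs in the control pools (adjusted p = 0.00552). Pdcd1, at 101 and 107 CPM against 5.10 and 47.5 CPM, and Tigit, at 301 and 379 CPM against 168 and 190 CPM, did not pass (adjusted p = 0.182 and 0.149). Gzmk was found in 37.3% and 60.9% of cycling Cd4 cells against 10.0% and 14.3%. Other Cd4 cells pointed the same way, with Gzmk in 26.6% and 40.3% against 5.62% and 9.22%, and were not tested.

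The genes that fell in cycling Cd4 cells included the mitotic gene Cenpf, a kinetochore protein, at 118 and 97 CPM against 275 and 268 CPM, and the histone gene Hist1h2ae, at 370 and 341 CPM against 805 and 1150 CPM. They fell by 1.32 and 1.45 on the log2 scale (adjusted p = 0.041 and 0.018). With 2 UMIs of each rule gene Hist1h2ae did not pass by edgeR (log2 change -1.06, adjusted p = 0.0875). The Cenpf call was lost without Runx1::Runx1t1 replicate 2 (adjusted p = 0.373), with 2 UMIs of each rule gene (0.398), with at least 500 genes (0.128) and without the highest doublet scores (0.0639). None of the 48 G2 and M genes tested beside the rule genes had a log2 change above 0, and their median was -0.78, against -0.02 for 38 S phase genes. Mki67, which chose the cells and is given as a description, was at 480 and 502 CPM against 892 and 804 CPM. Aqp3, a water and glycerol channel, fell from 122 and 57.7 CPM to 11.3 and 13 CPM (adjusted p = 0.016, and 0.308 with 2 UMIs of each rule gene). Foxp3, the regulatory T cell factor, was found in 28.8% and 21.7% of cycling Cd4 cells against 25.0% and 52.4%, and in 23.0% and 19.9% of other Cd4 cells against 19% and 19.9%. In cycling Cd8 cells, which should largely lack it, the share was 2.17% and 2.07% against 2.86% and 5.00%. None of the 7 regulatory T cell genes tested passed. The 11 myeloid genes summed to 1104 and 15.6 CPM in cycling Cd4 cells against 20.4 and 17 CPM, so replicate 1 of the Runx1::Runx1t1 group stood apart, led by Lyz2 at 845 CPM.

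Set beside the other Cd8 cells, in which 8 genes rose (0.0604%) and 4 fell (0.0302%) of 13237 with 2672 at an unadjusted p under 0.05 (0.0609% and 0.0305% without the cells with myeloid UMIs), cycling Cd8 cells differed in granzyme genes by the interaction test of edgeR. The 12 calls in other Cd8 cells were not stable, with 714 by DESeq2, 0 among cells with a TCR chain, 1316 and 204 without Runx1::Runx1t1 replicates 1 and 2 and 2 and 7 without control replicates 1 and 2. With a replicate block, other Cd8 cells had 1189 calls. Of 20 cytotoxicity genes the interaction called 5 lower (Gzma, Gzmb, Gzmk, Ccl3 and Zeb2) and 2 higher (Klrd1 and Klrk1). The ratio of CPM in cycling to that in other Cd8 cells of the same pool was 4.61 and 0.830 for Gzma against 19.3 and 4.99. For Gzmb it was 2.63 and 1.37 against 8.65 and 2.70, and for Gzmk 2.16 and 1.51 against 6.12 and 1.45. Both control pools had higher ratios than both Runx1::Runx1t1 pools for Gzma and Gzmb, and the groups overlapped for Gzmk. Without control replicate 1 the interaction of Gzmb was -0.41 (adjusted p = 0.423) and that of Gzmk 0.41, and with 2 UMIs of each rule gene that of Gzmk was -0.0079 (adjusted p = 1). Without Runx1::Runx1t1 replicate 2 the adjusted p was 0.0762 for Gzmb and 1 for Gzmk, and by DESeq2 it was at least 0.999 for all 3. Other Cd8 cells had Gzma at 290 and 719 CPM against 53.7 and 63.8 CPM, while in cycling cells the pools overlapped. The interaction of group and cycling in edgeR called 58 genes higher (0.447%) and 191 lower (1.47%) of 12971, and 12 (0.0951%) and 41 (0.325%) of 12622 without the cells with myeloid UMIs. That fit gave no weight to the spread of single genes, and limma on the ratios within each pool, which does, called 0 genes, with 1238 at an unadjusted p under 0.05. By limma the difference for Gzma was -2.18 ± 1.18 (SE, adjusted p = 0.713).

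TCR sequences were found for many cycling cells and were not part of the rule. An alpha and a beta chain were both read in 200 and 262 cycling T cells against 46 and 94, which fell into 180 and 163 clonotypes against 45 and 92. A clonotype is a set of cells of 1 pool with the same nucleotide sequence of both junctions (CDR3, the part that contacts antigen). Cycling cells of a clonotype that had at least 2 cycling members were found for 12 and 21 clonotypes against 1 and 2. By sequence alone, no pair of junctions had cycling cells in more than 1 pool. Of 480 pairs with a cycling cell, 3 were also found in a cell of another pool. Of the cycling cells with both chains, 61.0% and 38.5% against 76.1% and 79.8% were the only cell of their clonotype in the pool. Joins of invariant T cells were rare among them, with 5 cells carrying TRAV11 joined to TRAJ18 and 3 carrying TRAV1 joined to TRAJ33.

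The 9 clonotypes with at least 5 cycling cells were all in the Runx1::Runx1t1 group, 8 of them in replicate 2. The CDR3 sequences of 5 are printed below, chosen as the clonotype with the most cycling cells, those with the highest cycling shares in Cd8 and Cd4 cells, the other Cd4 clonotype and the one of replicate 1. They are the coding strand from 5′ to 3′, and capitals mark bases that match neither the V nor the J gene segment of GENCODE M21, including the D segment of beta chains. The alpha segments lie on the plus strand of mouse chromosome 14 and the beta segments on chromosome 6 (GRCm38), for example the V gene Trav6-6 at chr14:53516929-53517366 and Trbv1 at chr6:40891229-40891885.
TRAV6-6 TRAJ48 alpha chain: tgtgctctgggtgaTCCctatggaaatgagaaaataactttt
TRBV1 TRBJ2-7 beta chain of the same cells: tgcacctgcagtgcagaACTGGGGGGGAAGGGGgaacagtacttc
TRAV16 TRAJ49 alpha chain: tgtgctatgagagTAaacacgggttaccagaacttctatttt
TRBV12-2+TRBV13-2 TRBJ1-6 beta chain of the same cells: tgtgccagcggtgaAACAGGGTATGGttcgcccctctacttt
TRAV12D-2 TRAJ57 alpha chain: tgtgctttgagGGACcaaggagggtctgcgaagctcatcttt
TRBV16 TRBJ1-5 beta chain of the same cells: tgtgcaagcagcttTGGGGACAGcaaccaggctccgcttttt
TRAV10D TRAJ53 alpha chain: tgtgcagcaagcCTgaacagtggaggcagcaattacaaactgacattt
TRBV31 TRBJ2-7 beta chain of the same cells: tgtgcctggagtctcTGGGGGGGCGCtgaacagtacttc
TRAV7-4 TRAJ18 alpha chain: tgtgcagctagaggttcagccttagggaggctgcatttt
TRBV31 TRBJ2-3 beta chain of the same cells: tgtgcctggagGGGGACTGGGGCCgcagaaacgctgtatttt

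The largest clonotype of replicate 2 of the Runx1::Runx1t1 group, TRAV6-6 with TRBV1, had 30 cycling cells of 1088 (2.76%, 95% Wilson interval 1.94% to 3.91%, which covers counting error only). That was 11.5% of the cycling cells with both chains in its pool. The median depth of these 30 cells was 6441 UMIs. Of them, 4 had 2 UMIs of each rule gene and 5 held Birc5 or Pclaf. The TRAV16 clonotype, of which 5 cycling cells were Cd8 and 7 had both co-receptors, had 12 cycling cells of 51 (23.5%, 14% to 36.8%), of which 10 held Birc5 or Pclaf. The Cd4 clonotype TRAV12D-2 with TRBV16 had 11 of 56 (19.6%, 11.3% to 31.8%), 8 of them with Birc5 or Pclaf. TRAV10D with TRBV31, also Cd4, had 5 of 18 (27.8%), and TRAV7-4 with TRBV31, the 1 clonotype of replicate 1, had 5 of 104 (4.81%). These clonotypes were shown for having at least 5 cycling cells, so a small one had to have a high share. Over all 26 clonotypes of at least 20 cells in replicate 2 the median cycling share was 2.85%, and 15 of them had a cycling cell.

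Within a clonotype, cycling and other cells share a receptor and a pool, so their levels can be set side by side. In the TRAV6-6 clonotype Tigit was at 883 CPM in cycling and 873 CPM in other cells, Gzma at 3723 and 3964 CPM, Pdcd1 at 305 and 389 CPM and Ccl5 at 33481 and 46787 CPM. Gzmb was at 356 and 598 CPM, Havcr2 at 129 and 59.3 CPM and Coch at 102 and 44.4 CPM, so the genes differed in direction. In the TRAV16 clonotype Ccl5 was at 6393 CPM in cycling and 28113 CPM in other cells, and Ccl4 at 271 and 1037 CPM. Ccl5 was lower in the cycling cells in 8 of the 9 clonotypes and Ccl4 in 7. The exceptions were TRAV13-1, with Ccl5 at 34997 and 29648 CPM, and TRAV9D-3 and TRAV10D, with Ccl4 at 3828 and 2619 CPM and at 2175 and 224 CPM. Over the same 9 clonotypes, Lag3 was lower in the cycling cells in 9. Gzmb, Nkg7 and Havcr2 were lower in 7 and higher in 2, and Coch was lower in 6 and higher in 2. Pdcd1 and Tigit were lower in 6 and higher in 3, and Gzmk was lower in 5 and higher in 4. In TRAV6N-6 with TRBV1, with 6 cycling cells of 44, Ccl5 was at 8093 and 46068 CPM. In TRAV7-4, Coch was at 406 and 599 CPM. These are sums of 5 to 30 cycling cells of 1 pool each and have no replicate.

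**Figure D5:**
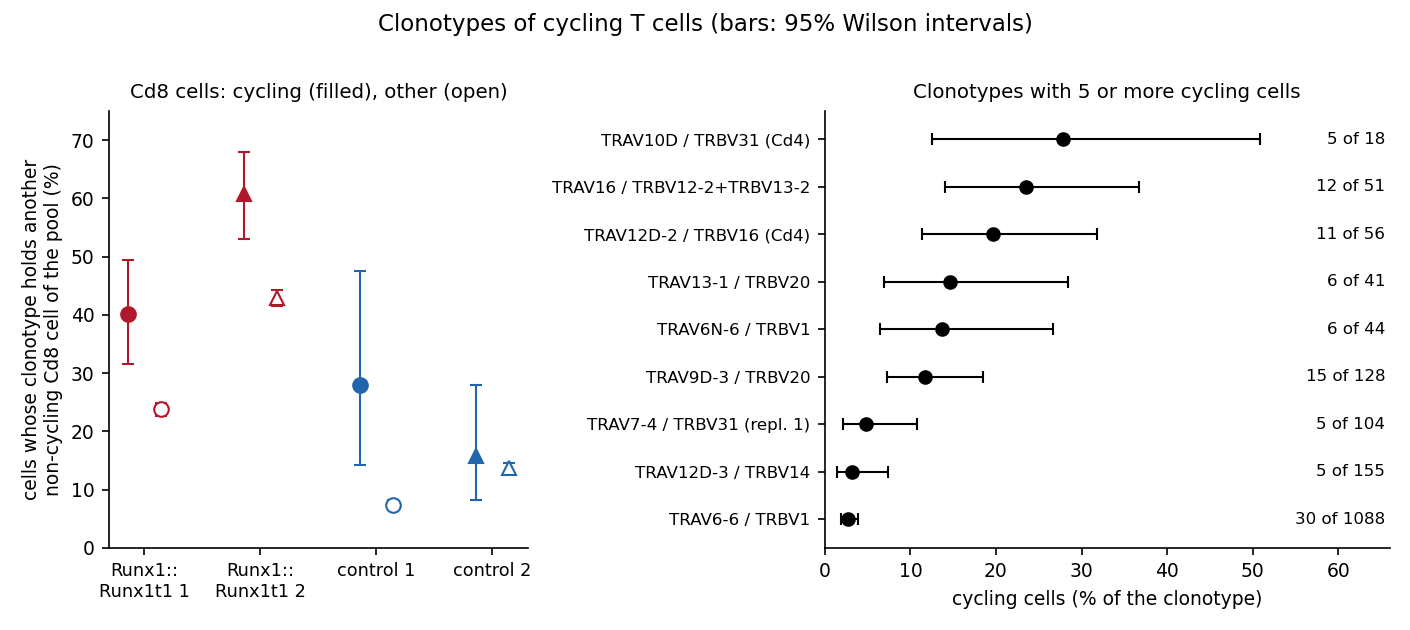
Left, Cd8 cells (y axis, %) whose clonotype holds another non-cycling Cd8 cell of the pool, for cycling (filled) and other cells (open) of each pool (x axis). Right, cycling cells as a percent of each clonotype with at least 5 cycling cells (x axis), with counts; all are of Runx1::Runx1t1 replicate 2 unless marked, and bars are 95% Wilson intervals. Cycling cells lie above other cells in all 4 pools, and small clonotypes on the right have high shares because 5 cycling cells were required.

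Cycling Cd8 cells belonged to expanded clonotypes more often than other Cd8 cells of their pool. The clonotype was shared with a non-cycling Cd8 cell in 45 of 112 (40.2%) and 99 of 163 (60.7%) cycling cells of the Runx1::Runx1t1 pools and in 7 of 25 (28%) and 8 of 51 (15.7%) of the control pools. Other Cd8 cells shared theirs in 23.8% and 42.9% against 7.40% and 13.7%. The difference was 14.2 ± 8.31 percentage points (SD over 4 pools), above 0 in 4 of 4 pools, and the two-sided exact sign permutation test gave p = 0.125, the smallest value that 4 pools allow. With 2 UMIs of each rule gene the mean difference was 7.14, and 0.535 in Runx1::Runx1t1 replicate 2. In Cd4 cells the difference was 3.50 ± 9.03 points, above 0 in 3 of 4 pools (exact sign permutation p = 0.625).

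By clonotype size, Cd8 cells that were alone in their pool were cycling in 1.54% and 2.08% against 0.395% and 0.813%. Those in clonotypes of 2 to 4 cells were cycling in 3.97% and 6.69% against 1.83% and 1.61%, and those in clonotypes of 5 to 19 cells in 3.10% and 4.49% against 1.53% and 1.03%. In clonotypes of 20 or more cells the shares were 3.19% and 3.70% in the Runx1::Runx1t1 pools and 1.11%, from 1 of 90 cells, in replicate 2 of the control group. The highest share was that of clonotypes of 2 to 4 cells in all 4 pools. Among cycling Cd8 cells that were alone in the pool, 83.1% and 81.2% against 72.2% and 77.5% held Birc5 or Pclaf. In clonotypes of 20 or more cells these were 9 of 19 (47.4%) and 26 of 71 (36.6%) in the Runx1::Runx1t1 pools. The shares of large clonotypes were below those of lone members in both Runx1::Runx1t1 pools, a difference that was not tested.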

How the data were processed

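The authors mapped the reads to GRCm38 with Cell Ranger 6.1.2 (submitters' processing notes) and deposited UMI counts of 32285 genes per called barcode, with no normalization, and tables of productive TCR alpha and beta contigs that give the count of UMIs of each contig. From these counts, barcodes under 200 genes or above 15% mitochondrial UMIs were dropped. The cell rule and all gene lists were chosen with earlier results of these data known. Counts were summed per pool and class (at least 20 cells in each sum of the main fits, and as few as 13 in the alternatives) and fitted with edgeR 4.0.16 (TMM, filterByExpr, quasi-likelihood test, Benjamini-Hochberg adjustment at 0.05) in R 4.3.3. The study tested cells as replicates, which was not done here. The interaction fit had pool as a block. Clonotypes used the alpha and the beta contig with most UMIs. Other fits used DESeq2 1.42.0 and limma 3.58.1. No doublets were removed in the main fits, since the automatic threshold of Scrublet (Scanpy 1.11.5) marked 0, 573, 0 and 1 barcodes. Removing the 5% with the highest scores was an alternative, as were 500 genes with 5% mitochondrial UMIs, 2 UMIs of each rule gene, thinning to 2000 UMIs, RLE normalization, no low-count filter, a required TCR chain, a replicate block and leaving out each pool. The required TCR chain, the myeloid UMI filter and limma were chosen after seeing the data.

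On simulated counts, edgeR recovered 71% of genes changed by 1 log2 unit in cycling Cd8 cells (8700 genes, 6 false calls), 58% in cycling Cd4 cells (6267 genes, 5 false calls) and 42% in the interaction (9951 genes, 6 false calls), and 100% at 2 log2 units. In the simulation all genes had the same spread, and only genes with enough counts in the smallest pool were changed. The simulated interaction had no effect shared by the sums of a pool. The false calls counted there thus do not cover real genes whose spread differs. Nothing states that the pools of a group were prepared apart, so p-values measure the spread between these pools. Wilson intervals and the limit of 3 counts for a 0 cover counting error only. Genes named in the text were the rule genes, Birc5 and Pclaf, up to 4 of the most abundant members of each list and the members that passed, the 5 largest changes each way in each group test among genes without overlap (no TCR segment genes and none under 10 CPM in both groups), and the 5 largest of the interaction each way. Further genes named as examples of the cell cycle contrast, of clonotype levels or of single counts were chosen after their values were seen. Antisense or overlapping genes were not separated here, and TCR V segment genes with near-identical copies are uncertain. Some results were left out and are not reported here.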

Additional observations from a re-analysis of the deposited data

Results flagged for a closer look

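Each result below was picked because the group difference in cycling Cd8 cells was not the same as in other Cd8 cells by the interaction test of edgeR (quasi-likelihood, Benjamini-Hochberg). The fit drew the spread entirely from all genes, so the spread of a single gene did not enter. By limma on the ratios within each pool, 0 of 12971 genes passed (1238 at an unadjusted p under 0.05), and none of these genes did.

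Granzymes were among these genes. The interaction, on the log2 scale, was -2.22 for Gzma, -1.13 for Gzmb and -0.60 for Gzmk, all passing without the cells carrying myeloid UMIs too. Without control replicate 1, Gzmb had -0.41 (adjusted p = 0.423) and Gzmk 0.41, and with 2 UMIs of each rule gene Gzmk had -0.0079 (adjusted p = 1). Without Runx1::Runx1t1 replicate 2 the adjusted p was 0.0762 for Gzmb and 1 for Gzmk, and by DESeq2 it was at least 0.999 for all 3. Gzma was at 1337 and 597 CPM in cycling Cd8 cells against 1035 and 319 CPM, and at 290 and 719 CPM in other Cd8 cells against 53.7 and 63.8 CPM. The receptor Klrk1 (NKG2D) had 0.97 and Ctla4 -0.71, also passing without those cells. Ctla4 did not pass with 500 genes (adjusted p = 0.0589), DESeq2 (0.281), a TCR chain (0.408), or without Runx1::Runx1t1 replicate 1 (0.146) or 2 (0.493) or control replicate 1 (0.675). The ratio of cycling to other cells was 1.44 and 1.23 for Klrk1 against 0.933 and 0.621, and 1.02 and 0.905 for Ctla4 against 2.09 and 1.4, with no overlap in either.

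Other genes did not pass without the cells carrying myeloid UMIs. These were Ccl3 at -0.94, Klrd1 (CD94) at 0.60, Pdcd1 at -1.46, Zeb2 at -1.17, Spp1 (osteopontin) at -4.97 and Fkbp10 at -5.46. Without those cells Ccl3 had -0.03, Klrd1 0.41, Pdcd1 -1.46 and Zeb2 0.28, so the size for Pdcd1 stayed and the sign for Zeb2 turned. The sign also stayed for Fkbp10 and turned for Spp1. Fkbp10 had 4 and 7 UMIs in cycling Cd8 cells against 5 and 0, so its value rests on few molecules. Spp1 had 27 and 114 UMIs against 3 and 8.

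Genes with at most 3 UMIs over the 2 pools of a group, in cycling or in other cells, have no usable fold, and only the adjusted p is given. These were Trav13-4-dv7 (4.13e-17, with 63 and 39 UMIs in cycling cells against 1 and 0), Trav6-2 (7.72e-08, with 0 and 0 against 19 and 0), Trav14d-3-dv8 (0.0231), Trav15-2-dv6-2 (0.0461), Rtn1 (0.00516), Grk4 (0.0216), Hlx (0.0305) and Hba-a1 (0.0495). All 19 UMIs of Trav6-2 came from 1 control pool. Several of these calls were lost in other fits. Without the cells with myeloid UMIs, Grk4, Trav14d-3-dv8, Trav15-2-dv6-2 and Hba-a1 did not pass (adjusted p = 0.274, 0.271, 0.401 and 0.275 by edgeR). Hba-a1 did not pass with RLE normalization (0.0574), Hlx not with a TCR chain (0.128) and Rtn1 not without the low-count filter (0.0574). By DESeq2 Trav6-2 did not pass (0.9996).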

How the results depend on the processing

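The share of cycling cells was higher in the Runx1::Runx1t1 group at every setting, with the difference in points falling from 1.86 to 0.844 (2 UMIs of each rule gene) and 0.552 (thinned) for all T cells, from 1.91 to 1.01 and 0.578 for Cd8, from 1.25 to 0.0976 and 0.0472 for Cd4, and from 0.539 to 0.11 (2 UMIs) for neither. With 1 pool left out they were 1.17 to 2.56, 1.25 to 2.57, 0.472 to 2.03 and 0.182 to 0.896. The Cd8 part of cycling cells (9.84 points higher) was 17.4 higher with 2 UMIs, 5.77 with a TCR chain and 3.14 with each clonotype once. The Cd4 part (1.66) was -3.26, -1.22 (TCR chain), -5.09 (no myeloid UMIs) and -2.31 to 5.64 with 1 pool left out, the low end without control replicate 2, so it has no settled direction. The part with neither (-22.7) was -25.6, -9.68, -12.4 and -7.58 under 2 UMIs, TCR chain, no myeloid UMIs and each clonotype once.

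Calls in cycling Cd8 cells (245) numbered 146 with 2 UMIs, 159 with DESeq2, 575 with no low-count filter and 14 without myeloid UMIs. In cycling Cd4 cells (13) they were 7, 21, 161 and 28, 20 with a TCR chain, and 42 to 318 with 1 pool left out. In other Cd8 cells (12) they were 5 with 500 genes, 4 with 2 UMIs, 714 with DESeq2, 370 with no low-count filter, 0 with a TCR chain (2502 at an unadjusted p under 0.05), and 2 to 1316 with 1 pool left out. The interaction (249) gave 77 with DESeq2 (8 higher and 69 lower), 53 without myeloid UMIs, 0 with limma and 83 to 346 with 1 pool left out. Of the genes described as higher in cycling cells, a log2 limit of 0.5 gave 1003 for 459 in Cd8 and 742 for 397 in Cd4. Those lower (9 in Cd8, 54 in Cd4) were 141 and 303 at that limit, 25 and 130 with 2 UMIs, 14 and 115 with all genes of 1 UMI, 14 with a TCR chain in Cd8, and 12 to 17 and 64 to 119 with 1 pool left out. Without myeloid UMIs, Irf8 (1.16), Ccr2 (0.43) and Cdkn1a (0.16) in cycling Cd8 cells and the interactions of Spp1 (5.25) and Zeb2 changed sign. The Fkbp10 interaction did so with 2 UMIs (5.00) and without control replicate 1 (3.19), where Gzmk gave 0.41. Without control replicate 2 these were -6.07 and -1.62. The causes were not tested, and neither was the effect of the fewer cells that stricter rules left.

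By the check used, the replicate numbers did not pair the pools in cycling cells, and in other Cd8 cells the check did not settle this. Deviations of same-numbered pools correlated at 0.0744 in cycling Cd8, 0.00299 in cycling Cd4 and 0.257 in other Cd8 cells. With the replicate block there were 383, 107 and 1189 calls, none of the named calls was lost, and the exact permutation p of the share difference was 0.50.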
